A study of Mus musculus with 18 samples.

Results

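The IFIT, MX and viperin interferon effectors are a set of 9 genes, namely Ifit1, Ifit2, Ifit3, Ifit3b, Rsad2, Cmpk2, Mx1, Mx2 and Cxcl10. Of these, 8 were found by symbol in the table of 18204 genes and all 8 lay above the expression limit used for testing, which kept 16383 genes. Cmpk2 was not analysed here. The set was chosen by measured values, because several of its genes rose with the inhibitor MTOB at least as much in Ctbp1/2 dKO as in wildtype cells, so every value that compares MTOB with vehicle, or the genotypes under MTOB, is given as a description without a test.

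J774.1, a mouse macrophage cell line, was studied as wildtype cells and as Ctbp1-/-, Ctbp2-/- cells, which lack both C-terminal binding proteins (CTBPs) and are called dKO. Cells of each genotype received vehicle (PBS/DMSO), 1.5 mM MTOB (an oxo acid of the methionine salvage pathway, dissolved in PBS) or 0.25 mM 4-Cl-HIPP (a chlorophenyl hydroxyimino acid, dissolved in DMSO) for 4 h. The 6 groups had 3 replicates each, 18 samples in all, and a single vehicle group per genotype served both inhibitors. The experiment asked whether these CTBP inhibitors act through CTBPs, that is, whether their effects need the targeted genes. The methods describe clones grown from single cells after Cas9 electroporation, the labels do not give the number of clones, and a difference between clones cannot be told apart from the knockout. In these samples of whole cultures, fewer expressing cells and less RNA per cell cannot be told apart.

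Type I interferon binds its receptor and activates the kinases JAK1 and TYK2, which phosphorylate transcription factors of the STAT family. With IRF9 these form a complex that binds the interferon-stimulated response element (ISRE) in the promoters of antiviral genes. IFIT proteins bind viral RNA and block its translation, viperin (Rsad2) makes a nucleotide analogue that ends viral RNA chains, and CMPK2, encoded next to Rsad2, supplies its substrate. MX proteins are dynamin-like GTPases that trap viral components, and CXCL10 is a chemokine that draws T cells through the receptor CXCR3.

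The genes lie in 4 places of the mouse genome (GRCm39). The 4 IFIT genes form a cluster on the plus strand of chromosome 19, with Ifit2 at chr19:34527932-34554524, Ifit3 at chr19:34560899-34566443, Ifit3b at chr19:34585328-34590801 and Ifit1 at chr19:34618271-34632174. Mx1 (chr16:97248235-97264107, minus strand) and Mx2 (chr16:97336508-97362100, plus strand) are neighbours on chromosome 16. Rsad2 lies at chr12:26492745-26506451 and Cxcl10 at chr5:92494497-92496748, both on the minus strand. Ifit3 and Ifit3b are near-identical copies. Their longest coding sequences, of 1320 and 1209 bases, matched in 90.8% of 1320 alignment columns, with gaps counted as mismatches. Of the 31-base words of Ifit3, 71.4% occurred in Ifit3b. Reads could therefore have been divided between the pair, and the separate levels of Ifit3 and Ifit3b are uncertain. No other pair of the 4 IFIT genes shared a 31-base word.

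Promoter windows are shown to set the interferon response elements of the genes side by side. Sequences are from RefSeq (table build GRCm38.p6), and each window was found exactly once in GRCm39, in which the coordinates of the printed bases are given. All run 5′ to 3′ on the strand of the gene and cover the 170 bases from 220 to 51 before the RefSeq gene start. Capitals mark the ISRE core on either strand, that is GAAA, any 2 bases and GAAA, or TTTC, any 2 bases and TTTC when it lies on the opposite strand.
Ifit1 (chr19:34618069-34618238, plus strand): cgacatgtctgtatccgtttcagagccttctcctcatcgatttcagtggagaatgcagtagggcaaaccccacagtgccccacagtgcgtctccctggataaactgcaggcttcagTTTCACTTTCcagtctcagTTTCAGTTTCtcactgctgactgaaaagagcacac
Ifit3 (chr19:34560709-34560878, plus strand): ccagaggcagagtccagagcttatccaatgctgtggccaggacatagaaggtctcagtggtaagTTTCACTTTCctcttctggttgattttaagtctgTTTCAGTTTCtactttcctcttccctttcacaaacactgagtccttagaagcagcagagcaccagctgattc
Ifit3b (chr19:34585137-34585306, plus strand): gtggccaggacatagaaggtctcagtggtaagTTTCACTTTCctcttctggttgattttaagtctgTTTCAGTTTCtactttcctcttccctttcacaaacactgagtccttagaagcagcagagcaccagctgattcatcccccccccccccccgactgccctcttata
Rsad2 (chr12:26506502-26506671, minus strand): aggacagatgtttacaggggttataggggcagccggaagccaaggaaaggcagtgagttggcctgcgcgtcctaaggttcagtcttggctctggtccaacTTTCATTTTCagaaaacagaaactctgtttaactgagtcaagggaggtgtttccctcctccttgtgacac
Cxcl10 (chr5:92496799-92496968, minus strand): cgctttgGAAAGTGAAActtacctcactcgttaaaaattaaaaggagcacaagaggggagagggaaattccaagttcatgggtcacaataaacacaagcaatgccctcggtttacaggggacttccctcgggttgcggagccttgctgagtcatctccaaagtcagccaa

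Ifit1, Ifit3 and Ifit3b each held 2 ISRE cores, with the same letters (TTTCACTTTC and then TTTCAGTTTC) in the same order. The first bases of these cores lay at -104 and -85 in Ifit1, at -156 and -122 in Ifit3 and at -188 and -154 in Ifit3b, counted from the RefSeq gene start. Rsad2 held 1 core at -120 (TTTCATTTTC) and Cxcl10 held 1 at -213 (GAAAGTGAAA). Cxcl10 also held 2 matches to the NF-kB consensus, at -159 and -103. The window of Cmpk2 held no ISRE core, and none of these windows held a gamma-activated site (TTC, any 3 bases and GAA). The RefSeq windows of Ifit2 (chr19:34527844-34528093 and chr19:34528238-34528487) lie mostly or wholly within the gene as annotated in GRCm39. They thus cover only a part or none of the bases just before its annotated start. Neither held an ISRE core, and the first held a gamma-activated site at -241 (TTCCTGGAA), which matches on both strands. The lack of a core in these windows does not show that Ifit2 lacks one. Among 32851 upstream windows of the same length in the RefSeq table, 2.98% held an ISRE core, 7.02% a gamma-activated site and 3.9% an NF-kB consensus. These are matches of letters and were not tested as binding sites. Mx1 and Mx2 were matched to no window.

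RNA levels were read as TPM, a transcript abundance that accounts for gene length and is scaled to the same total in every sample. The number of reads behind a sample is therefore unknown. The mean normalized count over all samples, a column of the same table, was 5.01 for Ifit3b, 5.20 for Mx1, 13.9 for Ifit3, 23.5 for Ifit1, 31.5 for Cxcl10, 37.1 for both Mx2 and Rsad2 and 70.4 for Ifit2. The set thus rests on few reads, and Ifit3b and Mx1 on the fewest. Some samples list Ifit3b, Mx1 or Rsad2 at 0. An exact 0 in TPM can mean too few reads or a failed estimate, and these cannot be told apart here. Of the 8361 genes with a mean of at least 10 TPM, 50 are listed at 0 in at least 1 sample. Whether those genes were off in a whole group was not checked. Between replicates, Pearson r of log2(TPM + 1) across genes was 0.984 to 0.988. As a check of the labels, Ctbp1 fell from a mean of 218 TPM in wildtype to 25.1 TPM in dKO cells under vehicle, and Ctbp2 from 92.6 to 75.9 TPM. The log2 fold change was -3.07 (SE 0.13, limma, Benjamini-Hochberg adjusted p = 1.61e-10) for Ctbp1 and -0.28 (SE 0.06, adjusted p = 0.00427) for Ctbp2. The remaining RNA was not resolved by allele or exon.

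**Figure D1:**
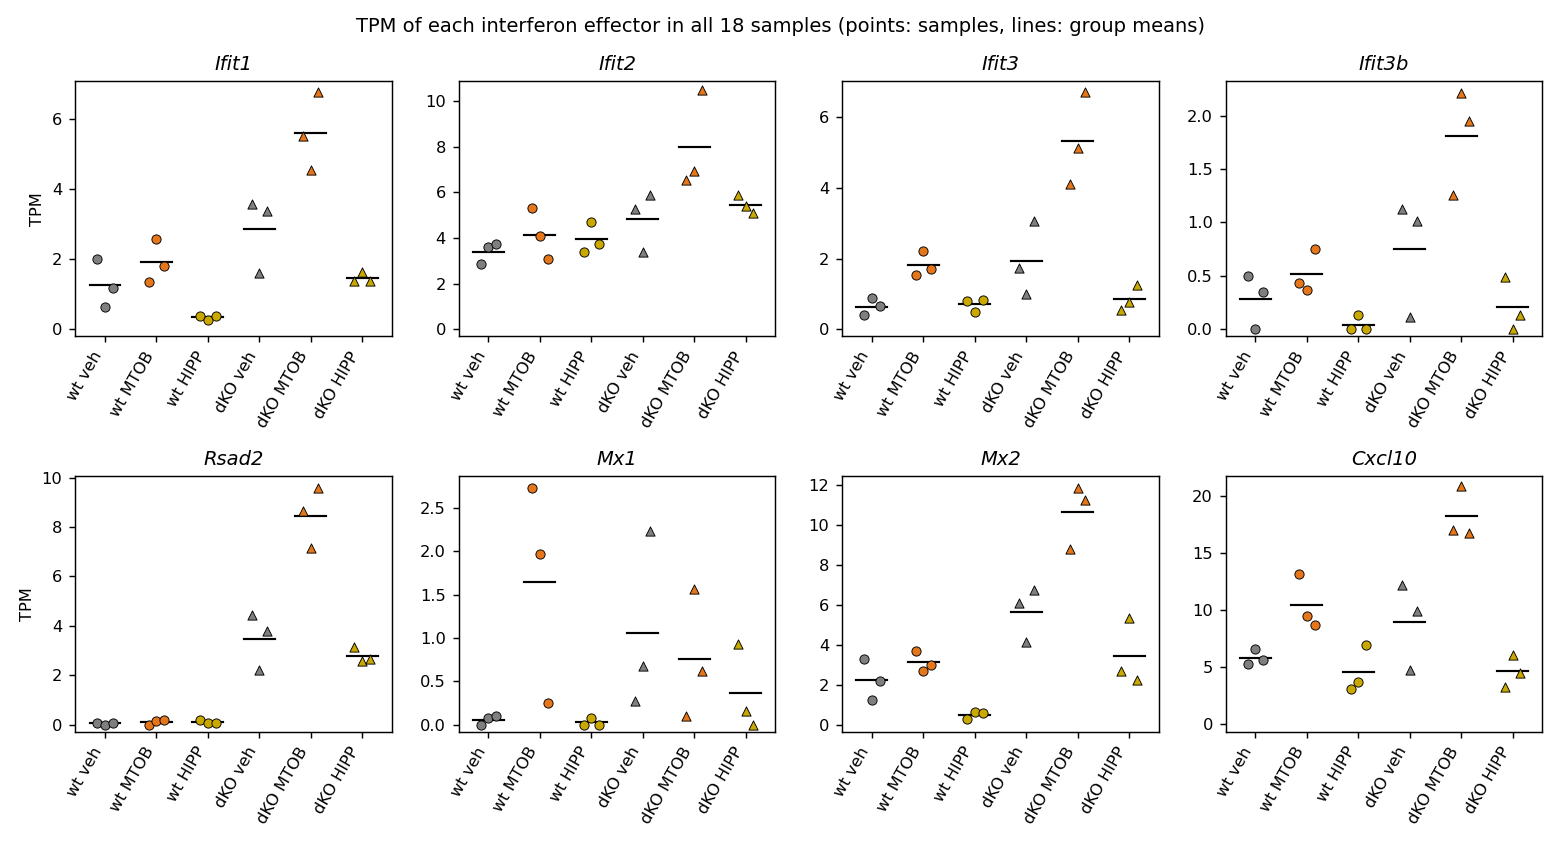
TPM of the 8 genes found, 1 panel per gene with its own vertical axis from 0, for the 6 groups of genotype and treatment (wt, wildtype; veh, vehicle; HIPP, 4-Cl-HIPP). Points are samples (circles wildtype, triangles dKO) and lines are means of 3 samples. Rsad2 stayed at or below 0.191 TPM in all 9 wildtype samples and at or above 2.21 TPM in all 9 dKO samples.

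Summed over the 8 genes, the level was lowest in wildtype cells with 4-Cl-HIPP, at 10.3 ± 2.20 TPM (SD, n = 3), followed by wildtype vehicle at 13.8 ± 0.705 TPM (SD, n = 3) and dKO 4-Cl-HIPP at 19.2 ± 2.49 TPM (SD, n = 3). Above these lay wildtype MTOB at 23.8 ± 4.40 TPM (SD, n = 3), dKO vehicle at 29.6 ± 10.1 TPM (SD, n = 3) and dKO MTOB at 58.8 ± 6.20 TPM (SD, n = 3). In this order the samples of dKO 4-Cl-HIPP overlapped with those of wildtype MTOB, and those of wildtype MTOB with those of dKO vehicle. The other neighbouring groups did not overlap. The wide spread of dKO vehicle came from replicate 2, with a sum of 17.9 TPM against 34.8 and 36.0 TPM in replicates 1 and 3. That sample was the lowest of its group for 7 of the 8 genes. The medians that rest on the dKO vehicle group, and some of the differences, are therefore also given without it.

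Among the IFIT genes, Ifit1, whose product binds RNA without the cap methylation of host messengers, ranged from 0.275 to 6.77 TPM. Under vehicle its levels were 2.00, 0.636 and 1.17 TPM in the wildtype samples and 3.60, 1.62 and 3.38 TPM in the dKO samples. With MTOB they were 1.35, 2.60 and 1.81 TPM in wildtype and 5.51, 4.56 and 6.77 TPM in dKO cells. With 4-Cl-HIPP they were 0.379, 0.275 and 0.395 TPM in wildtype and 1.38, 1.65 and 1.38 TPM in dKO cells. The genotypes thus overlapped under vehicle and were apart under either inhibitor, and in wildtype cells every 4-Cl-HIPP sample lay below every vehicle sample.

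Ifit2, whose product has been linked to apoptosis and to restraint of viral spread, had the most reads of the set and the narrowest relative range. Its vehicle samples had 2.86, 3.59 and 3.72 TPM in wildtype and 5.26, 3.37 and 5.86 TPM in dKO cells. MTOB samples had 5.31, 4.08 and 3.06 TPM in wildtype and 6.55, 6.95 and 10.5 TPM in dKO cells. Samples with 4-Cl-HIPP had 3.37, 4.72 and 3.71 TPM in wildtype and 5.88, 5.40 and 5.07 TPM in dKO cells. The dKO MTOB samples lay above all others, and the genotypes did not overlap with either inhibitor.

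Ifit3 encodes another protein of the IFIT family. It had 0.394, 0.889 and 0.648 TPM in wildtype vehicle and 1.74, 1.00 and 3.06 TPM in dKO vehicle samples. With MTOB the levels were 1.55, 2.23 and 1.71 TPM in wildtype and 4.12, 5.13 and 6.71 TPM in dKO cells. With 4-Cl-HIPP they were 0.799, 0.497 and 0.834 TPM in wildtype and 0.559, 0.762 and 1.25 TPM in dKO cells. The genotypes did not overlap under vehicle or MTOB and overlapped under 4-Cl-HIPP.

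The copy Ifit3b was lower. It was listed at 0.497, 0 and 0.349 TPM in wildtype vehicle and 1.13, 0.112 and 1.01 TPM in dKO vehicle samples. With MTOB it had 0.429, 0.366 and 0.753 TPM in wildtype and 1.25, 2.21 and 1.95 TPM in dKO cells, and with 4-Cl-HIPP 0, 0.133 and 0 TPM in wildtype and 0.494, 0 and 0.131 TPM in dKO cells. The dKO MTOB samples were the highest here too, and the genotypes overlapped under the other 2 treatments.

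Rsad2, which encodes viperin, was close to absent in wildtype cells. Vehicle samples had 0.0638, 0 and 0.0706 TPM in wildtype and 4.46, 2.21 and 3.79 TPM in dKO cells. MTOB samples had 0, 0.125 and 0.191 TPM in wildtype and 8.66, 7.14 and 9.58 TPM in dKO cells. Samples with 4-Cl-HIPP had 0.190, 0.0609 and 0.0659 TPM in wildtype and 3.14, 2.59 and 2.64 TPM in dKO cells. No other gene of the set separated the genotypes under all 3 treatments except Mx2, and only Rsad2 left a gap between all wildtype and all dKO samples.

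Mx1, of which many inbred mouse strains carry defective alleles, had few reads. Its levels were 0, 0.0794 and 0.0930 TPM in wildtype vehicle and 0.270, 0.673 and 2.23 TPM in dKO vehicle samples. With MTOB they were 2.73, 1.96 and 0.252 TPM in wildtype and 0.0988, 1.57 and 0.618 TPM in dKO cells. With 4-Cl-HIPP they were 0, 0.0809 and 0 TPM in wildtype and 0.931, 0.159 and 0 TPM in dKO cells. Values scattered widely within groups, and MTOB and vehicle samples overlapped in dKO cells.

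Mx2, the second MX gene of the mouse, was more abundant than Mx1. It had 3.29, 1.24 and 2.20 TPM in wildtype vehicle and 6.09, 4.13 and 6.73 TPM in dKO vehicle samples. MTOB gave 3.70, 2.69 and 2.98 TPM in wildtype and 8.80, 11.9 and 11.3 TPM in dKO cells, and 4-Cl-HIPP gave 0.274, 0.646 and 0.574 TPM in wildtype and 2.70, 5.32 and 2.21 TPM in dKO cells. The genotypes were apart under every treatment, and the wildtype 4-Cl-HIPP samples were the lowest of all.

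Cxcl10 had the highest TPM of the set. Its vehicle samples had 5.30, 6.58 and 5.65 TPM in wildtype and 12.2, 4.75 and 9.97 TPM in dKO cells. With MTOB it had 13.2, 9.53 and 8.74 TPM in wildtype and 17.0, 20.9 and 16.8 TPM in dKO cells. With 4-Cl-HIPP it had 3.11, 3.74 and 6.94 TPM in wildtype and 3.29, 6.12 and 4.55 TPM in dKO cells. Both genotypes had higher levels with MTOB than with vehicle in every sample, and they overlapped under vehicle and under 4-Cl-HIPP.

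**Figure D2:**
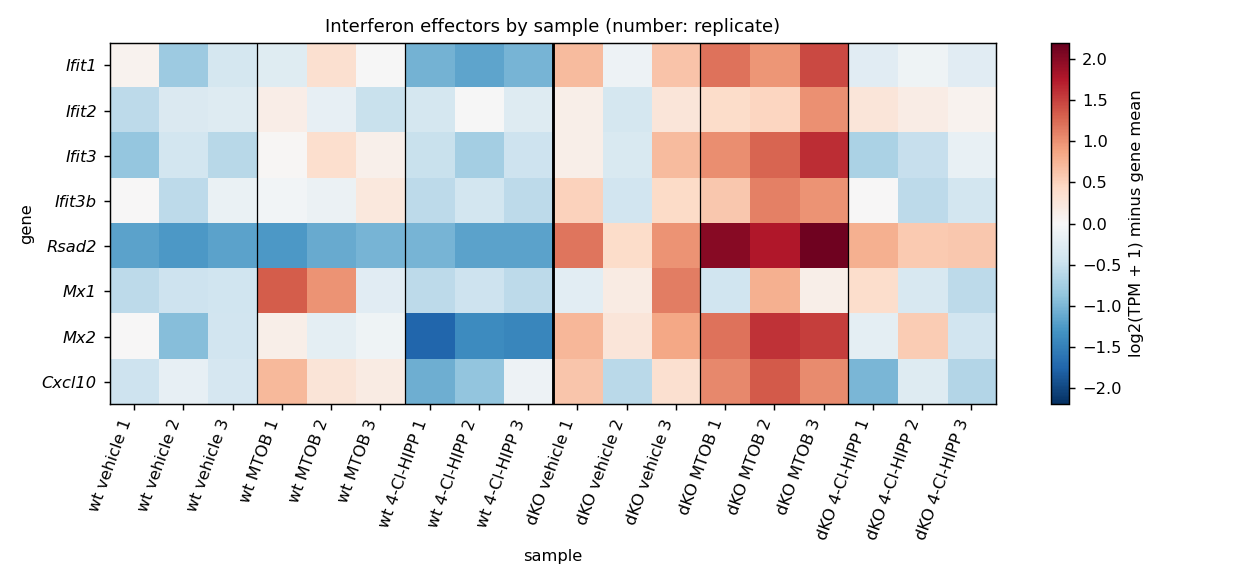
Log2(TPM + 1) of each gene minus its mean over the 18 samples, with samples in columns by genotype and treatment and replicate numbers in their names. Red is above and blue below the mean of the gene; the dKO MTOB samples are the reddest for all genes but Mx1, and dKO vehicle replicate 2 is the lowest of its group for 7 of the 8 genes.

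The MTOB contrasts chose these genes and are given without a test. On the log2(TPM + 1) scale, on which genes of low TPM appear to change less than in TPM itself, the differences between MTOB and vehicle in wildtype cells were 0.39 for Ifit1, 0.21 for Ifit2, 0.79 for Ifit3, 0.25 for Ifit3b, 0.08 for Rsad2, 1.18 for Mx1, 0.39 for Mx2 and 0.73 for Cxcl10. In dKO cells they were 0.81 for Ifit1, 0.63 for Ifit2, 1.15 for Ifit3, 0.72 for Ifit3b, 1.10 for Rsad2, -0.20 for Mx1, 0.82 for Mx2 and 1.02 for Cxcl10. The median was 0.39 in wildtype and 0.81 in dKO cells, and 0.21 in wildtype cells without wildtype vehicle replicate 2. Without dKO vehicle replicate 2 the dKO median was 0.59, and the differences in dKO cells were 0.55 for Ifit1, 0.43 for Ifit2, 0.90 for Ifit3, 0.42 for Ifit3b, 0.88 for Rsad2, -0.29 for Mx1, 0.64 for Mx2 and 0.67 for Cxcl10. In wildtype cells 3 of the 8 genes (Ifit3, Mx1 and Cxcl10) had every MTOB sample above every vehicle sample, as did 10.6% of all genes tested. In dKO cells 7 of 8, all but Mx1, were apart in this way, as were 9.51% of all genes. Between the genotypes under MTOB, 7 of 8 genes were higher in dKO cells without overlap, as were 13.4% of all genes, and the median difference was 1.01. The rule has no numerical limit. Cxcl10 and Ifit3 lay closest to equal changes, with wildtype minus dKO differences of -0.29 and -0.36, Rsad2 lay farthest on that side at -1.03, and Mx1 lay outside the description with 1.18 in wildtype and -0.20 in dKO cells.

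The comparison of dKO with wildtype cells under vehicle asks whether loss of CTBPs alone altered these genes, and it shares its vehicle samples with the MTOB contrasts. All 8 genes were higher in dKO cells, by a median of 0.78 on the log2(TPM + 1) scale against 0.012 over all genes tested. The median was 0.98 without dKO vehicle replicate 2 and 0.49 without dKO vehicle replicate 3. A gene was called at an adjusted p below 0.05 and a fold change above 1.5. Of the 8 genes, 3 were called higher, Rsad2, Mx2 and Ifit3, where 3.28% of all genes were called higher and 1.55% lower. The samples of Ifit3, Rsad2, Mx1 and Mx2 did not overlap between genotypes, as was the case, with dKO higher, for 15.1% of all genes.

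Rsad2 rose by 2.07 in log2(TPM + 1) (SE 0.17, limma, Benjamini-Hochberg adjusted p = 4.84e-07), from a mean of 0.0448 to 3.48 TPM, and it passed the test whichever sample was left out. With so low a wildtype level the size of its change depends on the pseudocount, and it was 4.61 in log2(TPM + 0.1). Mx2 rose by 1.06 (SE 0.26, limma, Benjamini-Hochberg adjusted p = 0.0147), from a mean of 2.24 to 5.65 TPM. Mx2 was no longer called when wildtype vehicle replicate 2 (adjusted p = 0.0794), dKO vehicle replicate 1 (0.0555) or dKO vehicle replicate 3 (0.0694) was left out, or when the fit held the 2 compared groups alone (0.103). Ifit3 rose by 0.79 (SE 0.24, limma, Benjamini-Hochberg adjusted p = 0.0488), from 0.643 to 1.93 TPM. Its call was close to the limit and was lost without any one sample other than dKO vehicle replicate 2 (adjusted p = 0.0587 to 0.225, limma, Benjamini-Hochberg). Ifit1 differed by 0.77 and missed the limit (SE 0.24, limma, Benjamini-Hochberg adjusted p = 0.0579). It passed without wildtype vehicle replicate 1 (adjusted p = 0.0202) or dKO vehicle replicate 2 (0.0118). Without the latter sample 4 of the 8 genes were called, and without wildtype vehicle replicate 2, dKO vehicle replicate 1 or dKO vehicle replicate 3 only Rsad2 was.

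The remaining genes did not pass the test under vehicle. The difference was 0.39 for Ifit2 (95% confidence interval -0.039 to 0.82), 0.41 for Ifit3b (-0.12 to 0.94), 0.85 for Mx1 (-0.039 to 1.73) and 0.46 for Cxcl10 (-0.17 to 1.10). These intervals include both 0 and changes larger than the fold limit. Without dKO vehicle replicate 2 the differences were 0.58 for Ifit2, 0.71 for Ifit3b, 0.94 for Mx1 and 0.82 for Cxcl10, and none of these passed (adjusted p = 0.0703 to 0.317, limma, Benjamini-Hochberg). Of them, only Mx1 had groups that did not overlap.

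Under 4-Cl-HIPP the genotypes were compared in samples that no MTOB contrast used, and this is the comparison least tied to the choice of the set. All 8 genes were again higher in dKO cells, by a median of 0.37 against 0.0046 over all genes tested. Rsad2, Mx2 and Ifit1 were called higher, 3 of 8 genes, where 3.14% of all genes were called higher and 1.58% lower. These genes and Ifit2 had dKO samples that all lay above the wildtype samples, which held for 14.4% of all genes.

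**Figure D3:**
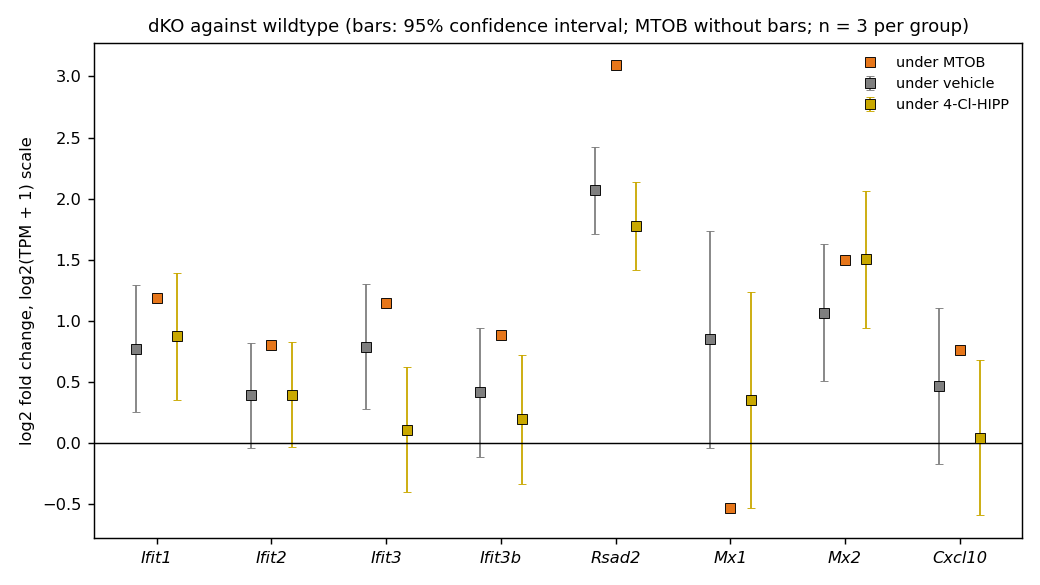
Difference between dKO and wildtype cells in log2(TPM + 1) for each gene under vehicle (grey), MTOB (orange) and 4-Cl-HIPP (yellow), 3 samples per group, with 95% confidence intervals from limma as bars. MTOB points carry no bars because that contrast chose the genes; Rsad2 has the largest difference under all 3 treatments, 2.07, 3.09 and 1.78.

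Rsad2 rose by 1.78 in dKO cells with 4-Cl-HIPP (SE 0.17, limma, Benjamini-Hochberg adjusted p = 2.44e-06), and the largest adjusted p on leaving out a sample was 3.13e-05. The difference was 3.86 in log2(TPM + 0.1). Mx2 rose by 1.50 (SE 0.26, limma, Benjamini-Hochberg adjusted p = 0.00112), from a mean of 0.498 to 3.41 TPM, and its adjusted p stayed between 0.00111 and 0.00792 on leaving out a sample. Ifit1 rose by 0.87 (SE 0.24, limma, Benjamini-Hochberg adjusted p = 0.0313), from 0.349 to 1.47 TPM. The call for Ifit1 was lost on leaving out any one of the 6 samples, where its adjusted p ranged from 0.069 to 0.0982 (limma, Benjamini-Hochberg), while its difference stayed between 0.82 and 0.90.

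Cxcl10, in contrast, differed by 0.043 between the genotypes under 4-Cl-HIPP (95% confidence interval -0.60 to 0.68), with means of 4.60 TPM in wildtype and 4.65 TPM in dKO cells. Ifit3 differed by 0.11 (-0.41 to 0.62), Ifit3b by 0.19 (-0.34 to 0.72), Mx1 by 0.35 (-0.54 to 1.24) and Ifit2 by 0.39 (-0.035 to 0.82). For Ifit3 and Cxcl10 the direction turned when 1 sample was left out.

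Some markers of the cell type differed between genotypes, in both directions. The 9 macrophage markers found of 10 listed summed to 2772 to 2862 TPM in wildtype vehicle and 2514 to 2582 TPM in dKO vehicle samples, and to 2673 to 2729 and 2397 to 2476 TPM with 4-Cl-HIPP. Of the 9, 2 were called higher and 2 lower in dKO cells under vehicle, and 1 higher and 2 lower under 4-Cl-HIPP. Over all genes tested 3.28% were called higher and 1.55% lower under vehicle, and 3.14% and 1.58% under 4-Cl-HIPP. The median difference of the 9 was -0.058 under vehicle and -0.032 under 4-Cl-HIPP. Cd14, the lipopolysaccharide co-receptor, fell from 458 to 143 TPM under vehicle (log2 -1.67, limma, Benjamini-Hochberg adjusted p = 2.31e-10), and Adgre1, which encodes F4/80, fell from 29.1 to 8.93 TPM (log2 -1.59, adjusted p = 1.49e-05). Itgam, which encodes CD11b, rose from 15.8 to 47.9 TPM (log2 1.57, limma, Benjamini-Hochberg adjusted p = 2.26e-05). In wildtype cells MTOB moved some of the same markers, with Adgre1 at 102 and Cd14 at 833 TPM. Markers of plasmacytoid dendritic cells, the cell type known for high interferon output, summed to at most 4.55 TPM in any sample, with 3 of 5 found. Of these, Cox6a2 fell in dKO cells from 3.04 to 0.987 TPM under vehicle (limma, Benjamini-Hochberg adjusted p = 0.0036). The other 2 of the 3 were higher in dKO cells under vehicle, and the median difference of the 3 was 0.032 on the log2 scale. Lymphocyte markers (3 of 8 found) summed to at most 2.37 TPM, neutrophil markers (1 of 6) to at most 0.222 TPM and fibroblast and epithelial markers (2 of 8) to at most 1.15 TPM. The part of the moving macrophage markers in the differences between genotypes was not tested.

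The contrasts of 4-Cl-HIPP with vehicle, in both genotypes, used the vehicle samples of the MTOB contrasts that chose the genes. The difference of these contrasts between genotypes used them too, so none of these tests is independent of that choice. With 4-Cl-HIPP, 0 of the 8 genes were called against vehicle in wildtype cells, and 2 had an unadjusted p below 0.05 (limma), both lower, as did 2.94% of all genes. Over all genes tested 0.110% were called higher and 0.0305% lower. The median of the 8 was -0.16 against 0.010 over all genes, and -0.088 without wildtype 4-Cl-HIPP replicate 1. Mx2 differed by -1.07 (SE 0.26, limma, Benjamini-Hochberg adjusted p = 0.128), from a mean of 2.24 to 0.498 TPM, and Ifit1 by -0.71 (SE 0.24, adjusted p = 0.392), from 1.27 to 0.349 TPM. In both genes every 4-Cl-HIPP sample lay below every vehicle sample, which was so for 4.94% of all genes. Mx2 passed the test with a pseudocount of 0.1, with a log2 fold change of -1.93 (limma, Benjamini-Hochberg adjusted p = 0.0249), and its adjusted p was 0.0712 to 0.404 on leaving out a sample.

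For the other 6 genes in wildtype cells the 95% confidence intervals of the 4-Cl-HIPP effect included 0. They were -0.26 to 0.59 for Ifit2, -0.45 to 0.58 for Ifit3, -0.81 to 0.25 for Ifit3b, -0.28 to 0.44 for Rsad2, -0.93 to 0.84 for Mx1 and -0.98 to 0.29 for Cxcl10.

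In dKO cells 0 of the 8 genes were called with 4-Cl-HIPP and 4 had an unadjusted p below 0.05 (limma), where 0.122% of all genes were called higher and 0.0305% lower. These 4 were lower than with vehicle, as were 3.56% of all genes at that limit, namely Ifit1 by -0.60, Ifit3 by -0.62, Mx2 by -0.64 and Cxcl10 by -0.77, and their adjusted p lay between 0.455 and 0.491 (limma, Benjamini-Hochberg). The median of the 8 was -0.57 against 0.0043 over all genes, -0.80 without dKO vehicle replicate 2 and -0.36 without dKO vehicle replicate 3. In none of the 8 did the groups lie apart, against 5.73% of all genes with 4-Cl-HIPP lower. For all genes but Ifit2 and Mx1, this overlap came from dKO vehicle replicate 2 alone. Rsad2 differed by -0.21 (95% confidence interval -0.57 to 0.15), Ifit3b by -0.50 (-1.03 to 0.032) and Mx1 by -0.54 (-1.43 to 0.35). Ifit2 went the other way, at 0.17 (95% confidence interval -0.26 to 0.60), and was -0.025 without dKO vehicle replicate 2. Without that sample the differences of Ifit1, Ifit3, Mx2 and Cxcl10 were -0.86, -0.86, -0.81 and -1.12.

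**Figure D4:**
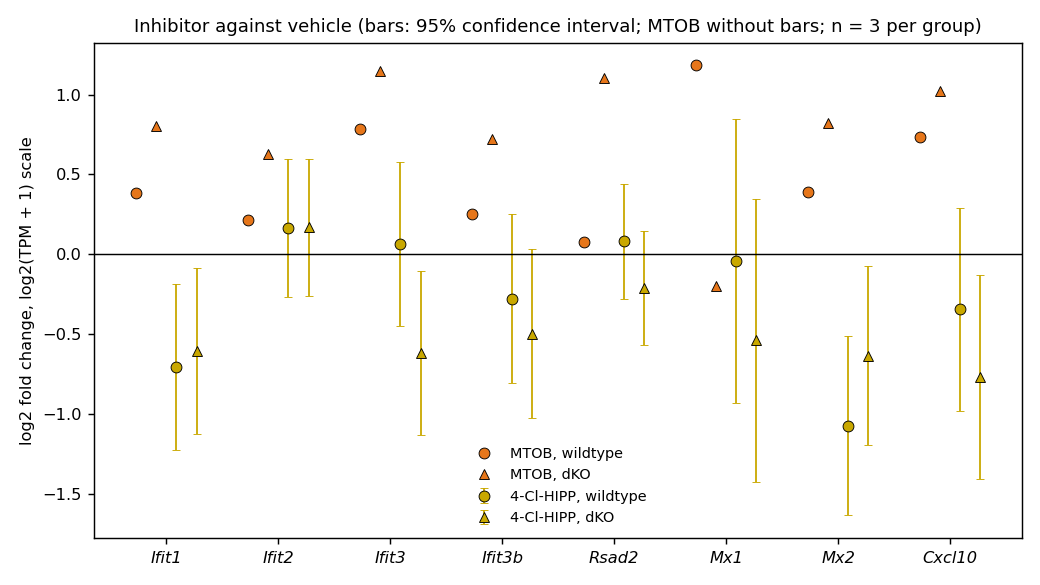
Difference between inhibitor and vehicle in log2(TPM + 1) for each gene, MTOB in orange and 4-Cl-HIPP in yellow, circles wildtype and triangles dKO, 3 samples per group. Bars are 95% confidence intervals from limma, and MTOB points carry none because that contrast chose the genes; Mx2 with 4-Cl-HIPP lies at -1.07 in wildtype and -0.64 in dKO cells.

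Whether the 4-Cl-HIPP effect differed between genotypes was tested as wildtype effect minus dKO effect. None of the 8 genes, and none of the 16383 tested, had an adjusted p below 0.05 (limma, Benjamini-Hochberg), and 0 of the 8 had an unadjusted p below 0.05 against 2.52% of all genes with a larger and 1.96% with a smaller effect in wildtype. The largest difference was that of Ifit3, at 0.68 (95% confidence interval -0.045 to 1.40, unadjusted p = 0.0642, limma). Without dKO vehicle replicate 2 it was 0.92. For Mx2 it was -0.44 (-1.23 to 0.36), for Ifit1 -0.10 (-0.84 to 0.63) and for Rsad2 0.29 (-0.21 to 0.80). For Ifit2 it was -0.0042 (-0.61 to 0.60) and for Mx1 0.50 (-0.76 to 1.75). The intervals leave room for differences above the fold limit in either direction for Ifit1, Ifit2 and Mx1. The genotypes cannot be called alike in their response. The 2 inhibitors were used at different doses, so no test between them was made. The median of the 8 genes against the same vehicle samples was 0.39 with 1.5 mM MTOB and -0.16 with 0.25 mM 4-Cl-HIPP in wildtype cells. In dKO cells it was 0.81 and -0.57. The MTOB contrasts chose the genes, so the difference in sign is partly built in.

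The genes upstream of and beside the set were described from lists written from general knowledge. Ifnb1, the interferon beta gene, was listed at 0 in all 9 wildtype samples and in the 3 dKO 4-Cl-HIPP samples. It was above 0 in 2 of 3 dKO vehicle and 2 of 3 dKO MTOB samples, with a maximum of 1.30 TPM. Of 12 interferon ligands and receptors, 3 were in the table and 0 of these were called between genotypes (limma). Under vehicle Ifnb1 had an unadjusted p of 0.0289 and an adjusted p of 0.164 (limma, Benjamini-Hochberg), which was 0.0201 without dKO vehicle replicate 2, with a difference of 0.93.

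Among 9 signal transducers, 2 were called higher and 0 lower in dKO cells under vehicle, and 3 and 0 under 4-Cl-HIPP. Irf7, the interferon-induced factor that amplifies interferon synthesis, rose from 9.66 to 48.7 TPM under vehicle and from 7.40 to 36.2 TPM under 4-Cl-HIPP. Its log2 fold changes were 2.20 (SE 0.16, adjusted p = 1.45e-07) and 2.15 (SE 0.16, limma, Benjamini-Hochberg adjusted p = 1.96e-07). Irf9, the DNA-binding part of the complex on the ISRE, rose by 0.69 and 0.67. Stat2 rose by 0.58 and 0.39, both below the fold limit (adjusted p = 0.00116 and 0.0217, limma, Benjamini-Hochberg). Irf8, a lineage factor of macrophages, fell by 0.41 and 0.34 on the log2 scale. Irf1 rose by 0.88 under 4-Cl-HIPP and by 0.41 under vehicle, the latter below the fold limit.

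Of 8 feedback inhibitors 1 was called higher under each treatment, Usp18, which removes ISG15 from proteins and blocks the interferon receptor. It rose by 2.15 (SE 0.14) under vehicle, from 6.89 to 34.2 TPM, and by 1.96 (SE 0.14) under 4-Cl-HIPP, from 4.74 to 21.3 TPM. Of 15 sensors and adaptors of nucleic acid recognition, 5 were called higher and 0 lower under either treatment, among them Ddx58 (RIG-I) by 1.82 and 1.77 and Ifih1 (MDA5) by 1.03 and 1.04. Of 26 other antiviral effectors, 18 were called higher and 0 lower under either treatment, with medians of 0.78 and 0.74. Oas3, which makes the activator of RNase L, rose by 1.52 and 1.77, and Ifitm3, which blocks viral entry, by 0.95 and 0.86. The background for these counts was the same 3.28% and 3.14% of all genes called higher.

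The partners of CXCL10 did not share one direction. Of 7 other CXCR3 ligand and NF-kB-driven cytokine genes tested, Ccl5, a T cell chemokine, was called higher in dKO cells under vehicle (log2 1.61) and under 4-Cl-HIPP (0.99), the latter no longer on leaving out any one sample (adjusted p = 0.0514 to 0.165, limma, Benjamini-Hochberg). Tnf was called lower under both (-0.70 and -0.86), and Tnfaip3 was called lower under 4-Cl-HIPP (-0.74). The 6 genes of pyrimidine nucleotide supply, with which viperin and CMPK2 share substrates, gave 0 calls under either treatment (limma). Cmpk1 had an adjusted p of 0.0327 under vehicle with a change of -0.25. The 2 IFIT paralogs tested, Ifit1bl1 and Ifit1bl2, gave 0 calls, and both lay at an adjusted p above 0.05.

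**Figure D5:**
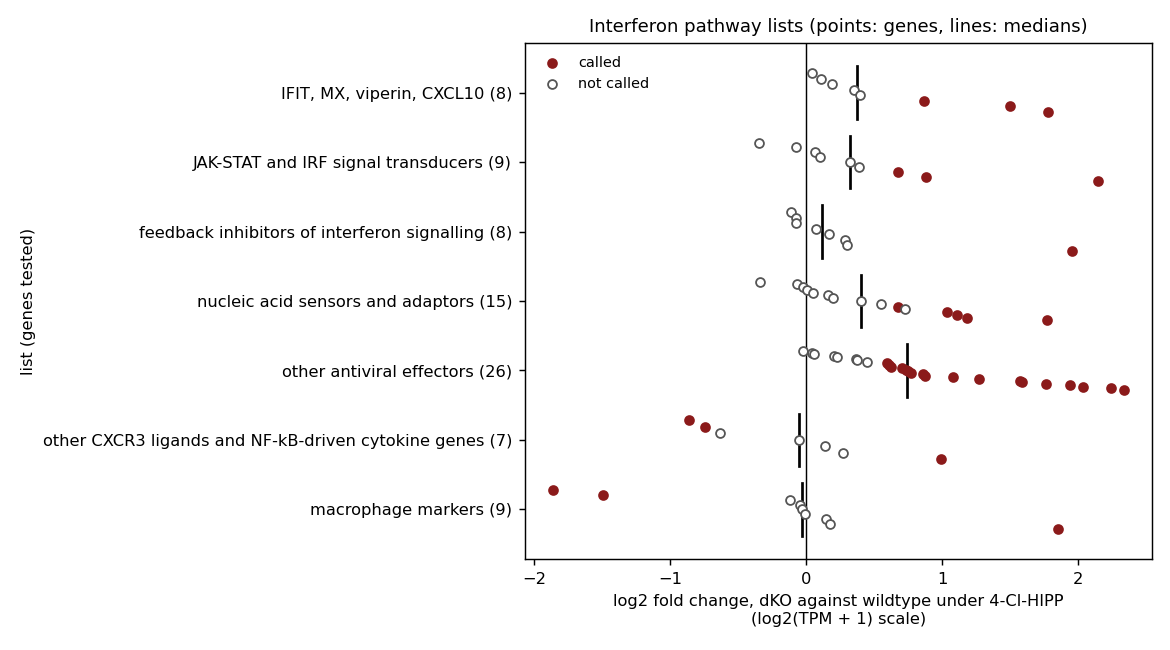
Difference between dKO and wildtype cells under 4-Cl-HIPP in log2(TPM + 1), 1 point per gene, for the 8 genes of the set and 6 lists (number of genes tested in brackets). Filled points were called at an adjusted p below 0.05 and above 1.5-fold, and lines are medians; antiviral effectors have 18 of 26 called with a median of 0.74, and Cd14, Adgre1 and Itgam are the 3 called macrophage markers.

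With 4-Cl-HIPP against vehicle few genes of these lists had an adjusted p below 0.05. Socs3, an inhibitor of JAK kinases, rose by 0.53 in wildtype (limma, Benjamini-Hochberg adjusted p = 0.00763) and 0.54 in dKO cells (adjusted p = 0.00652), both below the fold limit. Oasl1 fell by 0.75 on the log2 scale in wildtype cells, from 10.5 to 5.85 TPM (limma, Benjamini-Hochberg adjusted p = 0.0449), the 1 call among 26 other antiviral effectors. In dKO cells Tnf (-0.52) and Cd14 (-0.46) had adjusted p-values of 0.00652 (limma, Benjamini-Hochberg) and lay below the fold limit. Usp18 differed by -0.46 in wildtype (limma, Benjamini-Hochberg adjusted p = 0.288) and -0.65 in dKO cells (adjusted p = 0.0558), and Irf7 by -0.35 and -0.41. The median of the antiviral effectors was -0.072 in wildtype and -0.13 in dKO cells.

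The pattern of the set was summarised in each sample as the mean of the standardised levels of its 8 genes and compared with the 11038 other genes that reached a mean normalized count of 10. The highest Pearson r over the 18 samples belonged to Lpl (0.947, lipoprotein lipase), Nab1 (0.936), Parp14 (0.934), Igtp (0.934, an interferon-induced GTPase), Flrt2 (0.932) and Nrp2 (0.928). All samples share genotype and treatment with the set, so r was also taken after the group means were removed, which left 0.387 for Lpl, 0.503 for Nab1, 0.861 for Parp14, 0.709 for Igtp, 0.676 for Flrt2 and 0.478 for Nrp2. Lpl was highest in dKO MTOB, at 417 ± 37.3 TPM (SD, n = 3), and lowest in wildtype 4-Cl-HIPP, at 115 ± 4.62 TPM (SD, n = 3), the groups that were also highest and lowest for the sum of the set. Among the 28 pairs of the 8 genes the median r was 0.72 over the 18 samples and 0.32 within groups, where 25 pairs were positive. These correlations are descriptions over samples that share libraries.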

How the data were processed

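RNA of 18 J774.1 samples was sequenced. Groups were taken from the labelled genotype and treatment, and no batch is labelled. Per the methods and the submitters' processing notes, transcripts were quantified with Salmon 1.9.0 and tested with DESeq2 1.44.0 (genome GRCm39, unstranded libraries, with rRNA depletion in the methods and polyA RNA in the labels). The authors deposited a single file. Its TPM per gene and sample were computed by the authors from the Salmon estimates, and its signal per gene, the mean normalized count, came from the authors' DESeq2 run. The authors' own log2 fold changes and adjusted p-values for each inhibitor in the deposited table were not used. Raw counts were not analysed here.

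Here, log2(TPM + 1) of 16383 genes, those whose mean normalized count exceeded 0.222 (the 10th percentile), was fitted with limma 3.58.1 in R 4.3.3 (package data.table, version 1.17.8) as 6 group means over all 18 samples, with a variance trend on log2 mean normalized count. P-values were two-sided, adjusted per contrast (Benjamini-Hochberg) across every gene tested, and calls needed an adjusted p below 0.05 and a fold change above 1.5, or the adjusted p alone for the difference between genotypes. The procedure was tested on simulated data. Changes were placed there only in genes with more reads than most of the set, so detection at the set's own levels was not simulated. TPM keep no depth, so counting intervals are not given. The methods call replicates biological. P-values measure only the spread between the 3 samples within a group, estimated over all 6 groups and drawn toward a trend across genes.

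The genes and lists were chosen with earlier results of these data known. One gene of the list of signal transducers is not reported here and was left out of its counts. Genes named outside the set are Ifnb1, Stat2, Irf9, Irf7, Usp18, Ctbp1 and Ctbp2, up to 4 genes per list and contrast with an adjusted p below 0.05 by smallest p, and the 6 genes most like the set. Symbols were matched to ENSEMBL identifiers of the table, with Ddx58 for Rigi. Motifs were searched on both strands in the 250 bases before each RefSeq gene start. Coding sequences were read from GRCm39 and compared by global alignment (Biopython 1.88, Python 3.11.15). Figures used matplotlib 3.10.9. Alternatives were a pseudocount of 0.1, no filter, a mean normalized count of at least 10, median centring, no variance trend, a replicate block, only the compared groups, and each sample left out.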

Additional observations from a re-analysis of the deposited data

How the results depend on the processing

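The log2 fold changes, medians and calls of the 8 genes, and the number called over all genes, were recomputed with 7 other settings and with each sample left out. The same was done, chosen after seeing the data, for the calls of 5 lists between genotypes and for 14 of the listed genes. The other listed genes, the sums and the correlations were not recomputed. Over 1014 recomputed log2 fold changes of single genes, 964 kept their direction and their side of the threshold, or, where not tested, stayed within the spread of replicates, and 17 turned sign, each on leaving out 1 sample. With a pseudocount of 0.1, 1 of the 8 genes (Mx2) was called with 4-Cl-HIPP in wildtype cells instead of 0, and the median log2 fold change was 0.73 for MTOB in wildtype, -0.37 for 4-Cl-HIPP in wildtype, 1.27 for dKO against wildtype under vehicle and 1.07 under 4-Cl-HIPP. A smaller pseudocount weights low TPM more, by construction. Limiting genes to 10 or more mean normalized counts, which leaves 6 of the 8 genes, gave a median of 0.63 under 4-Cl-HIPP. With a fit of the compared groups alone, 1 gene (Rsad2) was called under vehicle, with fewer samples to estimate the spread. On leaving out 1 sample the number called was 1 to 4 under vehicle and 2 (2 to 2) under 4-Cl-HIPP between genotypes. The medians then ranged from 0.21 (without wildtype vehicle replicate 2) to 0.61 for MTOB in wildtype and from 0.29 (without dKO 4-Cl-HIPP replicate 1) to 0.49 for the genotypes under 4-Cl-HIPP. The sign turned for Mx1 with MTOB in dKO cells (-0.51 to 0.19), for the difference between genotypes of the MTOB effect on Cxcl10 (-0.54 to 0.065) and of the 4-Cl-HIPP effect on Ifit1 (-0.32 to 0.16) and Ifit2 (-0.13 to 0.19), and for 4-Cl-HIPP on Ifit3 in wildtype (-0.051 to 0.17) and Ifit2 in dKO cells (-0.025 to 0.30). It also turned for the genotypes under 4-Cl-HIPP in Ifit3 (-0.040 to 0.22) and Cxcl10 (-0.15 to 0.33). The cause was not tested. All 130 recomputed counts of the lists stayed within 1.5 times the reported count, with 15 to 18 of the 26 antiviral effectors called. Of 350 recomputed log2 fold changes of 14 listed genes, 338 kept their call. Ccl5 under 4-Cl-HIPP lost it under 11 alternatives, and Ifnb1 under vehicle gained it without dKO vehicle replicate 2. Over all genes, 23 were called with 4-Cl-HIPP in wildtype cells (15 with only the compared groups, 9 to 23 on leaving out a sample) and 25 in dKO cells (7, and 12 to 31).

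Samples share replicate numbers across groups, and the labels do not say that a number marks a shared day or batch. Of 45 pairs of samples with the same number, 0 had deviations from their group means that correlated above 0.1 (-0.141 to 0.0909). No pairing by number was thus seen, but this check cannot exclude a shared day or batch. With the replicate block 3 of the 8 genes were called under vehicle and 3 under 4-Cl-HIPP between genotypes, and 0 with 4-Cl-HIPP in either genotype, as without it. The levels of these genes, from 5.01 to 70.4 mean normalized counts, limit what could be detected.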
